A study of Mus musculus with 2 samples.

Results

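Long transcribed contigs of adult mouse liver are described here, where a contig is a stretch of the genome that the authors listed as covered by reads of 1 strand. Members were selected on their measured length: every contig of the deposited list with an end minus start of 5000 bases or more and a score for reproducibility between libraries of at most 0.1. How the authors calculated that score is not given in the files. This rule took 652 of 411452 contigs, or 0.1585%. Length, signal and score come from the same reads, so all 3 are given below as descriptions with no test. The score limit removed none, because every contig of 5000 bases or more had a score of 0.00, and the longest contig above the limit measured 2897 bases. The contigs just inside the length minimum measured 5000, 5002 and 5003 bases with signal levels of 1.58, 5.22 and 3.02. Those just outside measured 4999, 4996 and 4996 bases with signal levels of 22.1, 72 and 3.75.

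The study holds 1 group of 2 polyA RNA-seq libraries, labelled biological replicates 1 and 2, from liver of 8-week-old C57BL/6J mice, a common inbred laboratory strain. Littermates of both sexes were pooled, no animal carried a treatment or engineered allele per the labels, and nothing in the labels says that the replicates came from separate animals. The strand-specific libraries were read in pairs of 76 nucleotides from RNA longer than 200 nucleotides, and gave 59676342 and 60600117 estimated reads on genes in replicates 1 and 2. Contigs and splice junctions are 1 list each for the series, on mm9, whereas gene abundances are given per library on mm10, so contigs were tied to genes by the lengths of their introns and exons and not by coordinates. All 6 hepatocyte markers were detected, at mean values of 243 to 33438 TPM, the abundance per unit of transcript length scaled to a fixed total in each library. Of the markers of other cells, those of Kupffer cells lay at 5.44 to 72.7 TPM, of sinusoidal endothelium at 1.91 to 45.3, of stellate cells at 1.94 to 310, of cholangiocytes at 0.25 to 15.3 and of red cells at 37.7 to 626.

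In a mature mRNA the introns have been spliced out and the exons joined, and most internal exons of mammalian genes are short. The last exon is often the longest, because it carries most of the untranslated region that ends at the polyadenylation site. A few genes hold a coding exon of unusual length, and some nuclear noncoding RNAs are long and left largely unspliced. Hepatocytes, the main cells of liver, make most plasma proteins and carry out much of the metabolism of amino acids, lipids and drugs.

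Spliced products of 8 genes with long contigs described below are shown first, each as the last 30 bases of 1 exon in lower case followed by the first 30 bases of the next exon in capitals. All are coding sequence, written 5′ to 3′ along the transcript from GENCODE M21 on GRCm38. For the first 6 genes the junction is the one with most reads inside the longest contig, with its intron lying wholly within covered sequence.
C3: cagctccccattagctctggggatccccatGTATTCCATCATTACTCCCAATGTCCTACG
Mat1a: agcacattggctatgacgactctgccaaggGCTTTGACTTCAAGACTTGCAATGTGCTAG
Fasn: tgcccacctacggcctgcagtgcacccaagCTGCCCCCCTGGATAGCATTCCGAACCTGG
Alb: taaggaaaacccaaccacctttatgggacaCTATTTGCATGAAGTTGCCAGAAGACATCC
Fgg: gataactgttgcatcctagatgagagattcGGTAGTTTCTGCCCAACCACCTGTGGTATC
Ass1: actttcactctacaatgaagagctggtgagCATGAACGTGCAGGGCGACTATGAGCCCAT

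For 2 further genes the capitals open the very long coding exon that fills the contig, and the lower case is the exon before it.
Apob: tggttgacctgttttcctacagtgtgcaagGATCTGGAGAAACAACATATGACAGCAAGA
Srrm2: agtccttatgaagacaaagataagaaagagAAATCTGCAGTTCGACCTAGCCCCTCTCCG

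The C3 junction removes an intron of 1073 bases between exons 1 and 2 (chr17:57366306-57367378 on mm9, minus strand), with 37711 and 77401 reads in the libraries that the junction list calls R1 and R2. These names could not be matched to the labelled replicates. The Alb junction joins exons 4 and 5 over an intron of 657 bases and had 101131 and 138983 reads. The Fgg junction, exon 2 to 3 over 176 bases, had 42567 and 52912 reads. Both were read more often in R2. The Mat1a junction, exon 3 to 4 over 3060 bases, had 18284 and 12072 reads. The Ass1 junction, exon 14 to 15 over 3890 bases, had 13554 and 12046 reads. These 2 were read more often in R1. The Fasn junction, exon 39 to 40 over 85 bases, had 2103 and 3651 reads.

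Long contigs covered 4413522 bases, 2.98% of all bases covered by contigs, yet held 28.0% of the integrated signal, the sum of coverage over each contig. Their median length was 6114 bases with quartiles of 5431 and 7362, against a median of 230 bases over all contigs. Only 51 reached 10000 bases, 5 reached 15000 and 1, that of Neat1, reached 20000. The median signal level, which is the authors' value per contig, was 9.585 with quartiles of 4.242 and 30.27 and a range of 0.486 to 8970. Over all contigs the median was 0.225, and over the contigs from 1000 to under 5000 bases it was 1.83. The signal is proportional to the integrated signal per base, with a factor of 21.2 at the median over contigs, so that a signal level of 1 corresponds to a mean depth of about 21.2 if the integrated value is summed coverage, which the file does not say. Plus and minus strands held 329 and 323 members. Chromosome 7 held most, with 58, followed by chromosomes 2 and 11 with 55 each. Chromosome X held 8 and the mitochondrial chromosome 2.

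**Figure D1:**
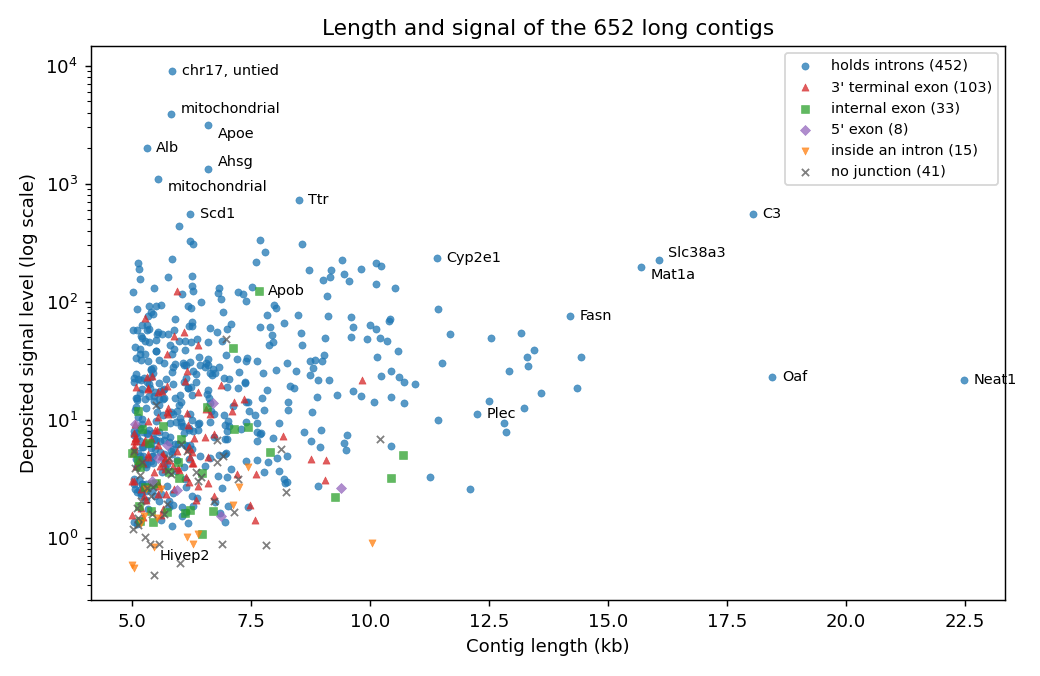
Length in kb (x axis) against deposited signal level on a log scale (y axis) of the 652 long contigs, 1 point each, with colour and shape for the 6 classes defined in the text and their numbers in the legend. The contigs with the highest signal are mostly 5 to 9 kb long, whereas the Neat1 contig, the longest at 22468 bases, has a signal level of 21.6.

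Signal was concentrated in few members. The 10 long contigs with most integrated signal held 51.5% of that of all 652. The highest signal level, 8970, belonged to a contig of 5840 bases on chromosome 17 (39979936 to 39985775, plus strand, mm9) that no gene could be tied to and that lies between tied junctions of H2-M3 and Crisp2. Its integrated signal stood at 1073741823, the largest value in the file and the only one of its kind, so its true value may be higher, and its share of 5.14% of the integrated signal of all contigs is a lower bound. Without this contig the long contigs held 24.2% of the integrated signal of the rest. The mitochondrial contigs (1048 to 6871 and 10760 to 16299, both plus strand) had signal levels of 3860 and 1100 and together 2.90% of the integrated signal. Junctions listed inside these 3 contigs were few relative to their depth: the top intron had 23808 reads at a mean depth of 183860 on chromosome 17, and 653 and 128 reads at mean depths of 82002 and 23295 on the mitochondrial chromosome.

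Nuclear genes followed, several of them genes of plasma proteins. Apoe, the apolipoprotein that carries remnant particles to their receptors, had a contig of 6604 bases (chromosome 7, 20280061 to 20286664, minus strand) with a signal level of 3110. Alb, the gene of serum albumin, had a single member of 5304 bases (chromosome 5, 90891400 to 90896703) with a signal level of 2000. Ahsg, which encodes fetuin-A, a plasma inhibitor of calcification, had 6600 bases at 1320. The others lay below 1000. Ttr, the carrier of thyroid hormone and of retinol-binding protein, reached 728 over 8502 bases. Scd1, the desaturase that makes monounsaturated fatty acids, reached 554 over 6218 bases, and C3, the central component of complement, 549 over 18034 bases. Serpina3k (437), the fibrinogen genes Fgg (336) and Fgb (230), the elongation factor gene Eef2 (325), the retinol-binding protein gene Rbp4 (306) and Apoc3 (265) came next. Cyp2e1, the ethanol-oxidising cytochrome P450, had a contig of 11400 bases at 234, beside a gene span of 11249 bases. Ndrg2 (228), the glutamine transporter gene Slc38a3 (227) and the protease inhibitor gene Pzp (218) completed the 20 highest, together with a second C3 contig at 310.

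Signal and gene abundance come from the same libraries. Across the 523 tied genes listed in the gene tables, Spearman's rho between the highest signal of a gene's long contigs and its mean TPM was 0.796, a description over genes that share both libraries. Between length and signal rho was 0.282 over the 652 contigs.

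Most long contigs took in whole introns. An intron lay inside a contig when a junction with 10 or more reads, summed over the 2 libraries, began and ended within it on its strand. Of the 652 contigs 452 (69.3%) held at least 1. Contigs are not replicates, so this share of a full list is given without an interval. The share over all contigs was 2.23%, and over the contigs from 1000 to under 5000 bases 22.8%. It rose with length, from 63.8% of the 503 contigs from 5000 to under 7500 bases to 85.7% of 98 up to 10000 and 92.2% of 51 from 10000. Median signal was higher in the longer classes too, at 7.85, 20.4 and 26.1. Among contigs with a signal level of 5 or more the share was 82.1% of 446 long contigs and 46.7% of 6291 contigs from 1000 to under 5000 bases. A longer contig can hold an intron more easily, and how far length by itself set these shares was not tested.

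**Figure D2:**
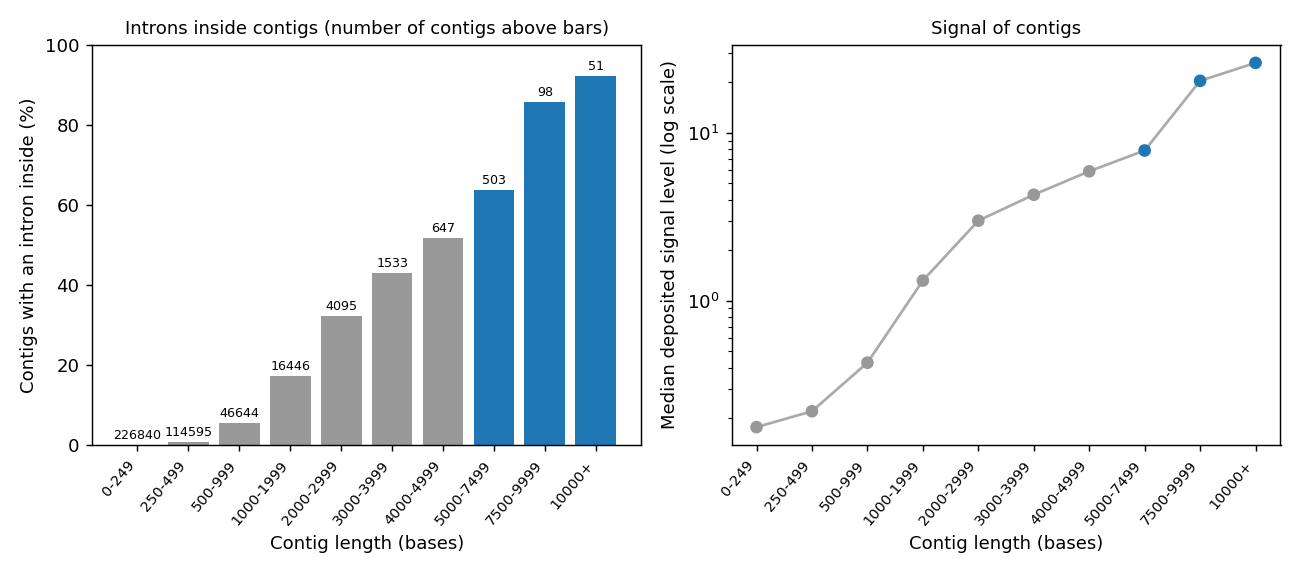
Left, percent of contigs with at least 1 intron inside (y axis) by contig length in bases (x axis), with the number of contigs above each bar; right, median deposited signal level on a log scale for the same length classes. Long contigs are in blue and shorter ones in grey, and the share reaches 92.2% in the 51 contigs of 10000 bases or more.

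Long contigs held 3257 such introns in all. Among the 452 contigs with any, the median was 5 introns, 108 held 10 or more and the most was 59. At the median 54.6% of a contig's length lay in these introns. In 380 of the 452 the most read intron had more reads than the contig's mean depth, and the median ratio was 4.06. This sets the highest of a contig's introns beside a mean over exon and intron bases alike, so ratios above 1 are easily reached. The depth also takes the integrated signal as summed coverage. In 9 contigs the ratio was under 0.1, among them both mitochondrial ones and those of Cyp2b9, Son, Uox, Abhd2, Aldh1l1 and Scp2. The contig placed beside Paqr9, a gene annotated with 1 exon, was another. A listed junction in such contigs need not be an intron, although they count among the 452. By their ends, 210 of the 452 had a junction entering at the 5′ side and none leaving at the 3′ side, 158 had junctions at both sides, 44 only leaving at the 3′ side, and 40 had neither and so held every junction they touched.

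The other 200 contigs held no intron. Of these, 103 had a junction entering and none leaving, as the last exon of a gene has, and 33 had both, as an internal exon has. A further 8 had only a junction leaving, 15 lay wholly within an intron, and 41 touched no junction of 10 reads. Median signal levels were 17.55 for contigs with introns, 5.49 for the 103 at a 3′ end, 3.63 for the 33, 3.89 for the 8, 1.35 for the 15 and 2.73 for the 41. Classes overlapped widely: contigs with introns ranged from 1.27 to 8970 and those with no junction from 0.486 to 48.3.

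A gene could be tied to 573 contigs (87.9%), through at least 1 pair of neighbouring introns whose lengths, with the exon between them, occur in 1 gene of the annotation. No minimum of reads was set for these junctions. They belonged to 532 genes. In 19 contigs junctions of more than 1 gene were found, and the gene with most tied junctions is the one named. In the deposited gene lists 523 of them appear, of which 509 are protein-coding. The rule needs neighbouring introns, so a gene with 1 or 2 exons cannot be tied, and the tied genes are not a sample of all genes. Annotated exons could be laid over the tied contigs from their splice sites. Exons filled at least 80% of 102 contigs, 20 to 80% of 231 and under 20% of 240, and the median was 25.3%. These shares are approximate. An exon was laid only where a junction reached it, which can make them too low. Every annotated exon at a reached site counted, with no minimum of reads and only retained-intron models left out, which can make them too high.

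The longest contigs with many introns ran through most of a gene. C3 was covered by 2 members 11 bases apart, the shortest gap found between contigs of 1 strand. They measured 18034 bases (chromosome 17, 57349552 to 57367585, minus strand) and 6280 bases (57343261 to 57349540), or 24314 bases beside an annotated gene span of 24167. The longer one held 59 introns with at least 10 reads, each a distinct listed junction, of which the most read had 115112. Several overlap a better read one, so the number exceeds that of the introns of any 1 transcript. In this contig 79.5% of the bases lay in introns. C3 itself had 3165 and 3299 TPM in replicates 1 and 2.

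Fasn, the synthase of long-chain fatty acids, had 1 contig of 14202 bases (chromosome 11, 120667259 to 120681460, minus strand) with 39 introns, beside a gene span of 18702 bases. Exons filled 60.9% of it. Its TPM was 513 in replicate 1 and 763 in replicate 2. Slc38a3 had 16067 bases and 47 introns, counted as for C3, beside a span of 18897, at 3019 and 3971 TPM. Mat1a, the liver enzyme that makes S-adenosylmethionine, had 15691 bases and 15 introns beside a span of 19378, at 1486 and 1170 TPM. In these 3 genes a single contig therefore reached 75.94%, 85.02% and 80.97% of the span.

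In other members among the 20 longest, exons filled a smaller part. The contig of Oaf measured 18449 bases (chromosome 9, 43029666 to 43048114), of which 87.5% lay in 4 introns, and exons filled 11.8%. Haao, an enzyme of tryptophan breakdown, had 14432 bases and Pemt, which methylates phosphatidylethanolamine to phosphatidylcholine, 13439. Exons filled 3.7% and 6.7% of them. Klf15, a transcription factor of fasting metabolism, had 13309 bases, Cyp2b9 13296, Prodh2 13235 and Ass1 13172. Cyhr1 (12857), Mbl1 (12805), Tmprss6 (12534), Akr1c6 (12493) and Plec (12239) were also among them. The pseudogene Cyp2d37-ps was tied to a contig of 13586 bases, beside an annotated span of 4399. Reads of the Cyp2d and Cyp2b families can match several copies, so those contigs are uncertain as to their gene.

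**Figure D3:**
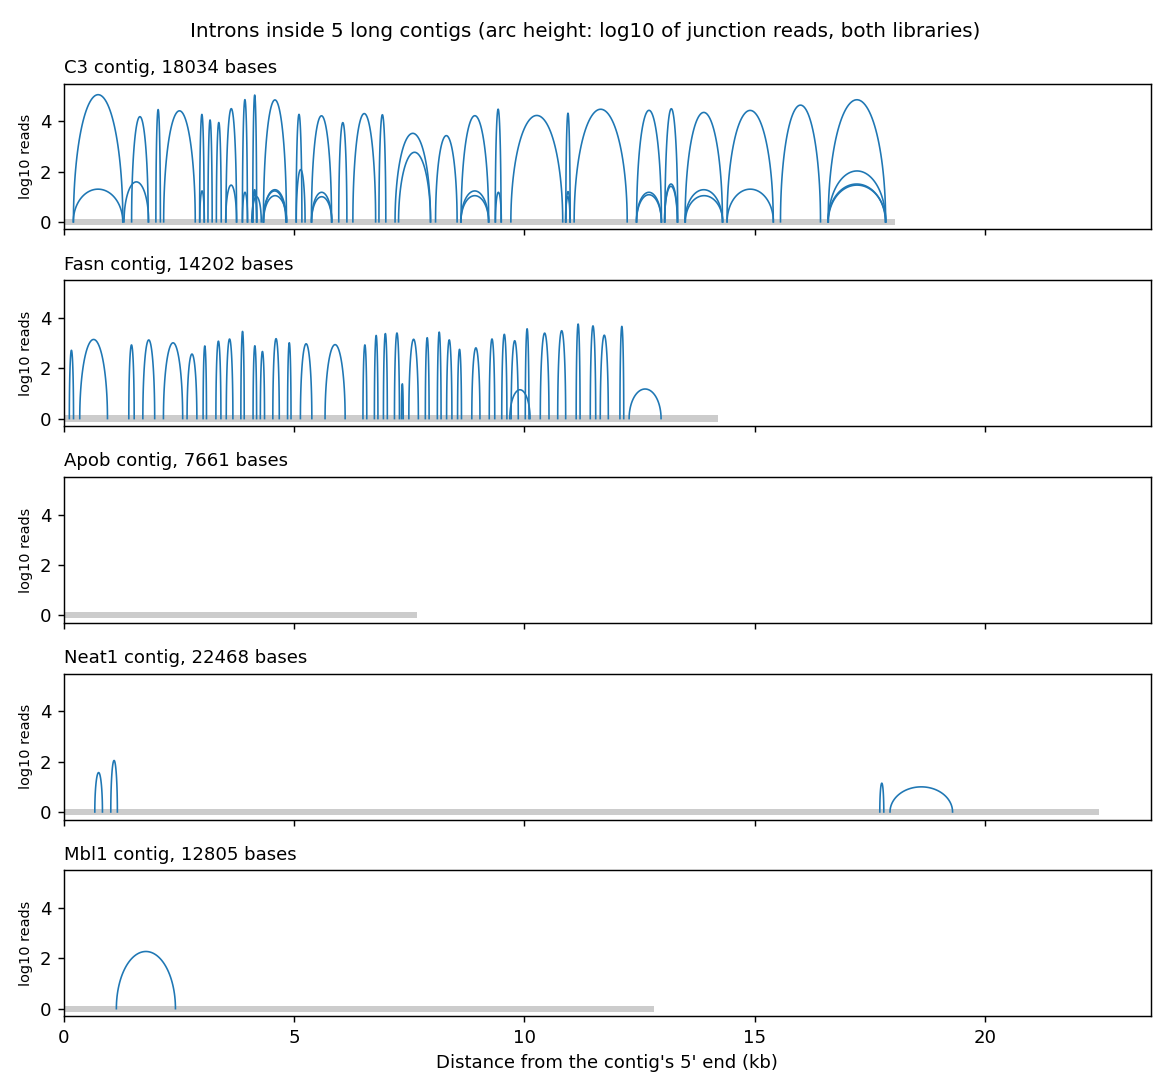
Introns with at least 10 reads inside 5 contigs, drawn to scale from each contig's 5′ end in kb (x axis); the grey bar is the contig and the height of an arc is the log10 of the junction's reads in both libraries (y axis). The C3 contig holds 59 introns and the Fasn contig 39, the Neat1 contig 4 with at most 112 reads, the Mbl1 contig 1, and the Apob contig none.

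In 96 of the 532 tied genes the long contigs summed to 80% or more of the annotated gene span, and in 175 to under 20%. The median was 33.9%. A sum can pass 100% where a contig runs beyond the gene. For Apoc3 the contig measured 7798 bases beside a gene span of 2704, and for Apoe 6604 beside 3080. Both genes lie in clusters of apolipoprotein genes.

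More than 1 long contig was tied to 38 genes, and 3 genes had 3. Ass1, the argininosuccinate synthase of the urea cycle, had contigs of 6774, 7404 and 13172 bases with signal levels of 55.4, 33.3 and 54.5. Exons filled 2.6%, 3.3% and 5.0% of them. Aldh1l1, a dehydrogenase of folate metabolism, had 5457, 7370 and 11681 bases at 15.9, 21.1 and 53.4. Hal, which breaks down histidine, had 5906, 5160 and 9802 bases at 6.24, 16.8 and 15.9. All 9 contigs held introns, and exons filled at most 17.8% of any. C3 and Sdc4, with 2 contigs each and 24314 and 19826 bases in sum, were next. Over all members, 349 of 652 (53.5%) had another contig of their strand within 50 bases. The same share over all contigs was not counted, so this one cannot be called particular to long contigs.

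A small set of contigs was mostly coding. Coding sequence made up at least 80% of 11 tied contigs, those of Spen, Son, Apob, Zfp646, Tcf20, Hivep2, Ice1, Srrm2, Helz2, Rai1 and Plec. In Helz2 and Plec several exons made up this share, the longest having 3685 bases of a contig of 6530 and 7412 of 12239. Apob, the structural apolipoprotein of very low density lipoproteins, had a contig of 7661 bases (chromosome 12, 8012523 to 8020183, plus strand, mm9). Its coding exon of 7467 bases (8005736 to 8013202 on GRCm38), whose first bases are printed above, filled 97.5% of it. The junction into that exon, an intron of 517 bases, had 935 and 1068 reads in R1 and R2. The signal level was 123, the highest of the 11, and Apob had 410 and 403 TPM in replicates 1 and 2.

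Srrm2 encodes a scaffold protein of nuclear speckles, the sites where splicing factors gather. Its contig of 7129 bases had a signal level of 40.3 and was 92.1% coding, from an exon of 6569 bases entered by 104 and 162 junction reads. Son encodes the other large speckle protein. Its contig of 5859 bases at 28 lay almost wholly within a coding exon of 5970 bases. Plec, the gene of the cytoskeletal linker plectin, had 12239 bases at 11.3, of which 80.1% were coding. Hivep2 had the lowest signal of the 11, 0.889, and 1.22 and 1.26 TPM.

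Long contigs at a 3′ end often stopped close to the end of an annotated exon. A last acceptor site could be located in 298 tied contigs with a junction entering and none leaving. In 126 of them (42.3%) the distance from that site to the contig's end was within 50 bases of the length of an annotated exon starting there. Where several exons start at the site, the one closest in length was taken, and it need not be the gene's last exon. In 92 the contig ran more than 500 bases further, and in 14 it stopped more than 500 bases short. Members that met the annotation over a long exon were Ddi2 (8074 bases past the acceptor, 8083 annotated), Fam210a (8736 and 8766), Atxn1l (7287 and 7288), Lifr, the leukaemia inhibitory factor receptor gene (6938 and 6944), Uhmk1 (6594 and 6594) and Igf1, the growth factor gene (6374 and 6368).

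The polyadenylation signal AATAAA was read on the transcript strand only, in exons that end a protein-coding transcript. It stood in the last 50 bases of 94 of 119 such exons (79.0%) whose end the contig met. It stood in 39 of 76 (51.3%) where the contig ran more than 500 bases further, and in 39.0% of all 53018 terminal exons of protein-coding transcripts. A match is a description of these letters and not of a used site. Contigs that ran furthest beyond the annotated exon were those of Mbl1, a mannose-binding lectin gene, with 10383 bases past the last acceptor beside an exon of 1099, and Ugt2a3, a glucuronosyltransferase gene, with 8102 beside 775. By this excess Pisd-ps1 (7054 beside 212) and Acnat2 (6822 beside 868) followed. Prlr, the prolactin receptor gene, stopped shortest, with 5338 of 8729 annotated bases.

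Long noncoding RNAs gave the longest contig and a few others. Neat1, the scaffold RNA of nuclear paraspeckles, had 22468 bases (chromosome 19, 5823128 to 5845595, minus strand, mm9) at a signal level of 21.6, beside an annotated unspliced transcript of 20771 bases. Its 4 introns had at most 112 reads at a mean depth of 459. Malat1, an abundant nuclear speckle RNA, has no neighbouring introns to be tied by. A contig of 6970 bases (chromosome 19, 5795693 to 5802662, minus strand, mm9) at 48.3 lay next to Neat1 among the tied junctions. Malat1 is the only gene of that strand counted in the interval, with genes much shorter than the contig left out. The annotated Malat1 transcript has 6983 bases. No other contig without a junction had as high a signal.

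The last 60 bases of the 2 annotated transcripts are printed. Malat1 and the long form of Neat1 are known to get their 3′ end by RNase P cleavage rather than by the usual polyadenylation. Capitals mark runs of at least 4 A. The Malat1 end as annotated holds AATAAA and does not close with such a run, so these letters do not show how that end forms.
Neat1: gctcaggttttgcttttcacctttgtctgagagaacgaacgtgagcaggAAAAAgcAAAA
Malat1: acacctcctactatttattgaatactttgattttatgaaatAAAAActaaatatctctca

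Xist, the RNA that coats the inactive X chromosome in female cells, had 2 members on chromosome X, of 7743 bases at 25 and 6697 bases at 13.8. Exons filled 97.9% and 98.2% of them. Its TPM was 23.4 and 35.9 in the pooled livers of both sexes. Of the 14 tied genes in the tables that are not protein-coding, 6 are lincRNAs, 3 antisense RNAs, 2 processed transcripts and 3 pseudogenes. B630019A10Rik had the lowest abundance, at 0.01 and 0.03 TPM, although its contig had a signal level of 4.92.

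At the other end, 240 tied contigs were under 20% exon, and their median signal level of 9.585 was above the 4.935 of the 102 contigs that were at least 80% exon. Ranges overlapped, at 0.486 to 2000 and 0.889 to 123. The 2 longest contigs without an intron inside were of this kind. That of Akr1d1, a steroid reductase gene of bile acid synthesis, had 10681 bases at 5.04 and ran 8449 bases past the acceptor of an exon of 117 bases. That of Plpp3, a lipid phosphatase gene, had 10433 bases at 3.21 and ran 10174 bases past the acceptor of an exon of 177. Depth is given per contig and not per base, so exons and introns within a contig could not be compared.

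Transcript models of the class called retained intron, in which an annotated intron is kept, were measured from the same reads, so the shares are a description. In the 221 tied genes with such a model, it held a median of 7.67% of the gene's TPM in replicate 1 and 12.5% in replicate 2. In the 4091 other detected genes with one, detected meaning at least 1 TPM in both libraries, the medians were 4.76% and 7.33%. The tied genes were more abundant. At a mean of 100 TPM or more, the medians were 3.32% and 6.94% in 101 tied genes with such a model. In the 352 others at that level they were 2.31% and 3.74%. The share was higher in replicate 2 in 182 of 221 tied genes and in 2806 of the 4091. Fasn had 81.7% and 81.0%. The models come from M21 and the abundances from M4, and reads within an intron and its host exons are divided among models by estimate.

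Contigs that could not be tied numbered 79, with a median signal level of 3.28 against 11.9 for the tied. For 38 of them just 1 annotated gene of the strand was counted between the nearest tied junctions. This placement by neighbours was added after the data were seen. Genes overlapping the interval by less than a set fraction of the contig's length were left out, so smaller genes can lie there too. Paqr9, a gene annotated with 1 exon of 8367 bases, lay so beside a contig of 9592 bases at 73.8, and had 129 and 92 TPM. Usf3 was placed beside 2 contigs, of 6790 and 5066 bases at 4.44 and 3.88, and holds an exon of 12051 bases. The longest untied contig, 10208 bases at 6.88 on chromosome 6 (38637511 to 38647718, minus strand), had only Klrg2 counted between Luc7l2 and Hipk2. Klrg2, however, was listed at 0.01 and 0 TPM. Likewise Wfikkn2, the only gene counted beside a contig of 7808 bases at 0.874, was listed at 0.01 and 0.03 TPM. Cbx5 (8223 bases at 2.44) and Tmem245 (7222 at 3.14) are further examples, with longest annotated exons of 8248 and 13370 bases.

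Of the remaining long untied contigs, one of 9177 bases at 185 on chromosome 14 lay between Pnp2 and Mettl17. There 10 genes of the strand were counted in the same way, Rnase4 and Ang among them. Another of 8726 bases at 186 on chromosome X lay between Med12 and Zmym3, with Nlgn3, Gjb1 and Gm21986 counted between. Contigs on chromosome 19 (8902 bases at 2.77, between Rab3il1 and Fads2) and chromosome 18 (8603 bases at 7.92, between Nedd4l and Malt1) were also untied, as was one beside Cyp2d38-ps (8766 bases at 6.59). Within introns, Rxra, a nuclear receptor gene, hosted 2 contigs of 10029 and 5032 bases at 0.914 and 0.561. Cyp2c70, a bile acid hydroxylase gene, hosted 7431 bases at 3.97. Rxra had 254 and 270 TPM and Cyp2c70 184 and 181.

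Contigs of the other strand overlapped 327 of the 652 (50.2%), and covered at least 50% of the length of 18. The same share over all contigs is not given here, and a longer contig can be overlapped more easily. In 10 members the other strand held more integrated signal within the contig than the member itself. Among them were Apoc3 (2.02 times its own), Gmppb (2.57) and Zyg11a (4.21). Lsr and an untied contig of 6584 bases on the other strand overlapped most, over 99.5% of the Lsr contig, at signal levels of 31.4 and 2.91.

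The share of genes with a tied long contig was larger in each higher class of TPM, and within each class it was smallest at a gene span under 5000 bases. Of the 10671 genes detected in both libraries 521 (4.88%) had a tied one. The share was 1.08% at 1 to 10 TPM, 5.19% at 10 to 100, 20.51% at 100 to 1000 and 28.8% of the 132 genes at 1000 TPM or more. Within this last class it was 5.46% of 55 genes with a span under 5000 bases, 35.6% of 45 from 5000 to under 15000, 60% of 25 from 15000 to under 50000 and 57.1% of 7 from 50000. At 10 to 100 TPM the share was 1.146% under 5000 bases and 5.68%, 5.87% and 6.03% in the longer classes, and at 100 to 1000 TPM 1.94%, 22.2%, 32.1% and 29.4%. Since abundant genes also give the signal that a contig needs, this is a description and not a test. Median TPM of the tied genes was 83.1 in replicate 1 and 88.4 in replicate 2, against 9.97 and 10.9 over all detected genes. Median gene span was 20881 bases against 21546, and median longest exon 1598 against 1431. Among genes at a mean of 100 TPM or more the spans differed. The median was 17864 bases in 239 tied genes and 8107 in the 873 not tied. Their median longest exons were 995 and 664 bases.

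**Figure D4:**
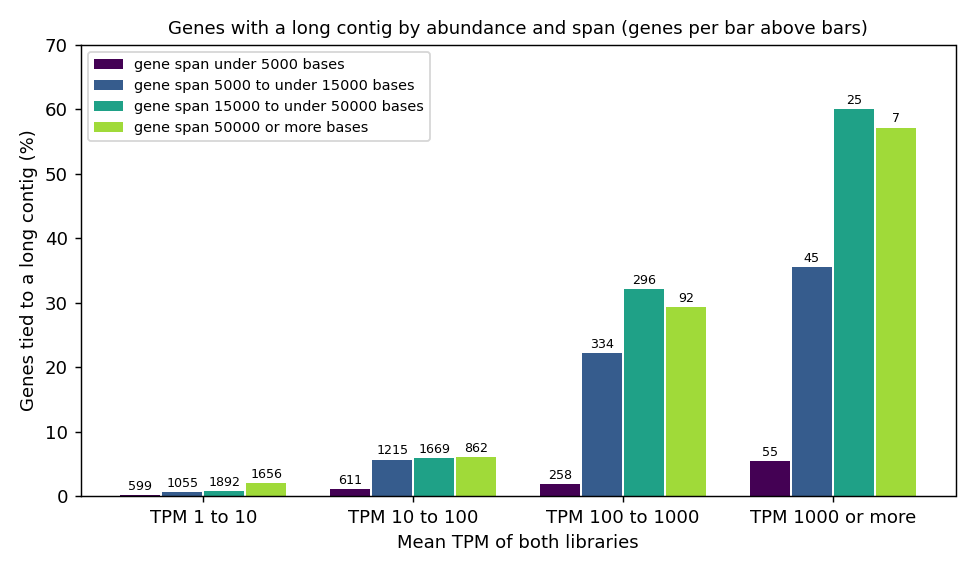
Percent of detected genes tied to a long contig (y axis) by mean TPM of both libraries (x axis) and, in colour, by gene span; the number of genes stands above each bar. The share is highest at 1000 TPM or more with a span from 15000 to under 50000 bases, at 60% of 25 genes.

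Gene lists of liver function differed in how many members had a long contig, and in abundance. Of 40 plasma protein genes, with a median of 1773 TPM, 18 had one. Fn1 (10591 bases), Plg (10397), Itih1 (10132), Itih4 (10123), F2 (9802), Serpinc1 (9550), Mug1 (8262) and Gc (6170) were among them besides those named above. Of 36 metabolic enzymes and regulators of liver, with a median of 453 TPM, 17 had one. They included Hpd (10219 bases) and Tat (9446), both of tyrosine breakdown, Cyp3a11 (7896), Insig1 (7389), Tdo2 (6898), Asl (6133), G6pc (5868), Cyp1a2 (5136) and Cps1 (5114).

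Among 36 transcription and chromatin factors, with a median of 18.2 TPM, 5 had a long contig: Klf15, the nuclear receptor genes Rxra (9608 bases), Nr1i3 (8843) and Ppara (6114), and Hnf4a, which had 2, of 9313 and 5511 bases. Among 25 genes of RNA export and nuclear speckles, at 18.1 TPM, 4 had a tied one: Neat1, Srrm2, Son and Ddx17 (8448 bases). Of 22 genes known for a very long exon or unspliced RNA 11 were detected, and 5 of these had a tied one. Malat1 is on both of these lists, and its contig, placed by neighbours alone, is counted in neither. Of the marker lists only hepatocytes had any, with Alb, Ttr, Cps1 and Hnf4a, whereas none of the 6 Kupffer, 5 endothelial, 5 stellate, 3 detected cholangiocyte and 3 red cell markers had one. The abundances of these lists differed as given above, and their part in the counts was not tested.

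The 2 libraries differed in many of these genes by more than counting error. An exact conditional binomial test, two-sided and adjusted by Benjamini and Hochberg's method over all genes tested, compares the 2 libraries and no conditions. Its p-values concern the difference between these samples alone, and that difference can be technical. It called 57.0% of all 14533 genes tested, 27.7% higher in replicate 2 and 29.4% higher in replicate 1. Of 522 tied genes tested it called 438 (83.9%), 166 higher in replicate 2 and 272 higher in replicate 1. Deeply read genes reach the threshold more easily: over all 5470 genes at 10 TPM or more 75.8% were called, and over the 465 tied ones 86.0%. The split depended on the scaling, with 258 higher and 183 lower in replicate 2 by total reads and 291 and 159 by spike-ins. Total reads and spike-ins moved the median log2 ratio of all genes from -0.004 to 0.13 and 0.15.

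Sizes were small. A call with at least a 2-fold difference was made for 7.60% of all genes tested and for 10 of the 522 tied genes. At 10 TPM or more it was made for 113 of all 5470 genes (2.07%) and for 7 of the 465 tied ones (1.51%). Serpina4-ps1, a serpin pseudogene, had 2.58 TPM in replicate 1 and 39.2 in replicate 2, a log2 ratio of 3.79. Neat1 had 73.6 and 305 TPM (log2 ratio 1.75), Osgin1, an oxidative stress gene, 176 and 559 (1.52), and Pisd-ps1 44.4 and 127 (1.43). Tgfbr3l, with 14.4 and 29.7 TPM (0.93), was the fifth among those higher in replicate 2, and its posterior SD of 2.50% of the estimated reads marks reads shared with other genes. Higher in replicate 1 were Slc25a25, a mitochondrial carrier gene, with 104.5 and 50.01 TPM (-1.30), Abhd2 with 83.1 and 39.9 (-1.20), N4bp2l1 with 20.2 and 10.5 (-1.08), Fam214a with 17.8 and 10.1 (-0.96) and Acnat2 with 40.7 and 24.7 (-0.96). By the exact test the adjusted p of N4bp2l1 was 1.612e-75 and that of Tgfbr3l 2.231e-32, and the other 8 were smaller. All 10 kept their direction under the 3 scalings. In pooled tissue, a lower level through fewer cells of a type and through less RNA per cell cannot be told apart.

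**Figure D5:**
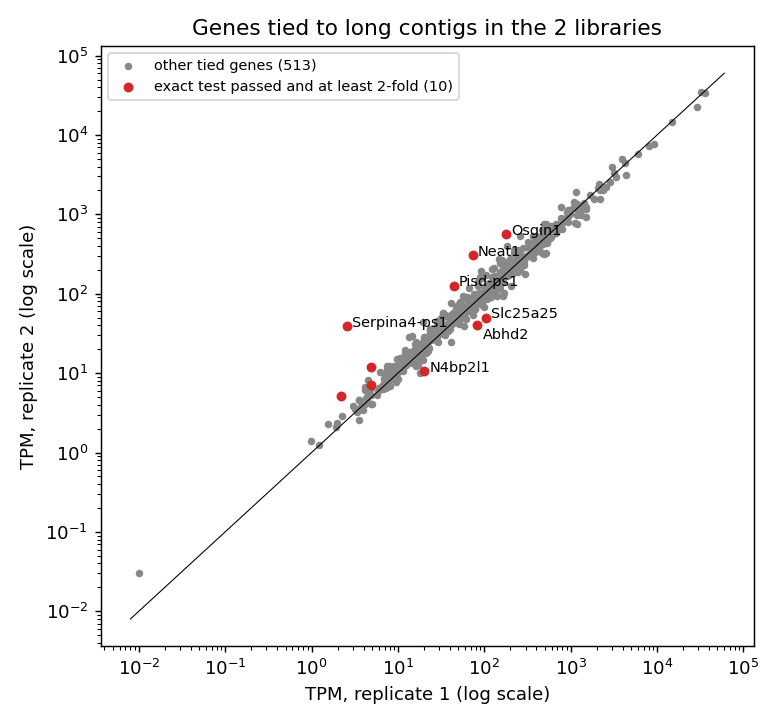
TPM in replicate 1 (x axis) against replicate 2 (y axis), both on log scales, for the 523 genes tied to a long contig, 1 point each, with the line of equal values. Red points passed the exact test with at least a 2-fold difference, and those at 10 TPM or more are named.

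By list, all 4 speckle genes with a long contig were called higher in replicate 2 under the 3 scalings. Srrm2 had 148 and 271 TPM in replicates 1 and 2, Son 31.5 and 50.1, and Ddx17 46.7 and 65.5. Of the whole list of 25, 22 were called higher in replicate 2 and 1 higher in replicate 1, with a median log2 ratio of 0.36 beside -0.004 over all genes. Malat1 had 72.1 and 141 TPM. Markers of cell types are compared here by TPM and not by calls, and the share of all genes with a higher TPM was not counted. The median TPM over all detected genes was 9.97 in replicate 1 and 10.9 in replicate 2. All 6 Kupffer markers and all 5 endothelial markers had a higher TPM in replicate 2. Sums in replicates 1 and 2 were 206 and 338 TPM for the former and 86.8 and 124 for the latter. Of the 6 hepatocyte markers 2 were higher in replicate 2, with sums of 54572 and 56011. Of the 3 red cell markers 2 were higher in replicate 2, with sums of 940 and 1437, and of the 5 stellate markers 3, with sums of 386 and 423. Of the 5 cholangiocyte markers 1 was higher, with sums of 21.2 and 18.7. The retained-intron shares given above were also higher in replicate 2. What part any of these had in the differences was not tested. Of the 17 metabolic genes with a long contig 14 were called higher in replicate 1 and 3 in replicate 2, with a median of -0.26, but by spike-ins 10 and 7. Fasn (513 and 763 TPM), Scd1 (1146 and 1905) and Cyp3a11 (493 and 752) were the 3. Of the 18 plasma protein genes 13 were called higher in replicate 1 and 3 in replicate 2, which turned to 5 and 13 by total reads. The whole list of 40 had 23 and 13, turning to 8 and 30, and 14448 genes matched to the annotation had 4253 and 3991, turning to 2577 and 5843.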

How the data were processed

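Members and gene lists were chosen with earlier results of these data known. The authors deposited contigs and junctions on mm9 as 1 list each for the series; the aligner and caller: not given in the sources used here. Signal (coverage level), score and integrated signal of a contig, as deposited, carry no stated unit or formula. The deposited junction counts are reads per intron. Per the file headers, the authors deposited estimated counts and TPM per gene and transcript, made on mm10 with GENCODE M4 per the labels and accompanying notes, and a posterior SD, used here as a score of shared reads.

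Contigs of at least 5000 bases with a score of at most 0.1 were taken. For classes, introns inside and last acceptors a junction counted from 10 reads, whereas ties to genes used junctions with any number of reads. A junction touched a contig within 10 bases of it. Junctions were tied to GENCODE M21 genes where 2 neighbouring introns and the exon between them, of at most 20000 bases, had lengths held by 1 gene on the same chromosome and strand: 99.8% of 123861 matches to 1 gene fell on its chromosome and strand. Ties out of the annotation's order along the chromosome (63 junctions) were dropped, a step added after the data were seen. Of junctions with at least 100 reads 93.8% were tied.

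Estimated counts were rounded, with TMM scaling (edgeR 4.0.16 under R 4.3.3), and genes with at least 20 reads were compared by the exact test at an adjusted p of 0.05, with a prior count of 0.5 in log2 ratios. Tying was tried on annotated introns moved by an offset per chromosome, and the test on simulated counts with counting error only. These simulations hold no unannotated junctions, no changes of length between assemblies and no variation between samples, and their outcomes are not given here. Named are the 20 longest and 20 highest contigs, mitochondrial ones, the 10 longest untied and the longest without a junction, list members, the 5 genes with most members, contigs at the limits, and the 5 largest ratios each way at 10 TPM or more; other genes were named after their values were seen. Analyses used Python 3.11.15, pandas 2.3.3 and scipy 1.17.1. Some contigs that this rule names are not reported here.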

Additional observations from a re-analysis of the deposited data

How the results depend on the processing

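The number of long contigs moved with the length minimum, to 1299 at 4000 bases and 51 at 10000, and not with the score limit. The share with an intron inside was 91.4% with junctions of 1 read or more, 59.7% with 100 or more, and 92.2% at a minimum of 10000 bases; it was 66.4% and 67.9% with each library of the junction list alone. The median signal level was 26.1 at 10000 bases or more. Contigs tied to a gene numbered 546 by 3 neighbouring introns, 424 by a single intron length, 574 without the check of order and 611 with neighbours, the last 2 added after seeing the data. Genes called between the libraries numbered 441 by total reads, 450 by spike-ins and 436 with no minimum, beside 438. The median TPM of tied genes was 85.6 from both libraries, 88.4 without replicate 1 and 83.1 without replicate 2. No paired analysis was possible because there is 1 group. Depth limits which genes can give a contig of this length.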
